A study of Mus musculus with 45 samples.

Results

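The 10 genes described here encode platelet and megakaryocyte proteins: Gp5, Gp9, Gp1ba, Gp6, Itga2b, Itgb3, Pf4, Vwf, Treml1 and Selp. They were taken by name from a table of chromatin accessibility scores that holds 24333 genes, and all 10 were in it. The scores come from Ter119+ erythroblasts, red cell precursors sorted by the surface protein Ter119, of mice that kept (WT) or lost (KO) Stag2. The product of Stag2 is part of cohesin, a ring-shaped complex that shapes loops of chromatin. Mice of both genotypes had received pIpC, which induces the deletion, and the final dose was 6 to 8 weeks before sampling. The labels give neither the driver of the deletion nor the age of the mice, and they do not say whether animals were pooled. Of the 45 samples of the series, 6 were analysed here: the single-nucleus ATAC libraries of the 10x Genomics multiome assay, 3 WT and 3 KO.

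Megakaryocytes, the cells that shed platelets, and erythroblasts descend from a shared progenitor and share regulators such as Gata1. As background, the von Willebrand factor receptor of platelets is a complex of the products of Gp1ba, Gp1bb, Gp9 and Gp5. The products of Itga2b (CD41) and Itgb3 pair to form the fibrinogen receptor, and Gp6 encodes a collagen receptor. Pf4, Vwf and Selp encode proteins stored in alpha-granules, namely platelet factor 4, von Willebrand factor and P-selectin. Treml1 encodes the granule receptor TLT-1. Most of these genes serve late megakaryocytes and platelets, while Itga2b is also active in early progenitors and Vwf and Selp in endothelium.

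A gene score sums ATAC fragments in and around a gene, so it measures accessibility and not RNA. The library was the replicate: scores were averaged over its nuclei and rescaled to a total of 1000000 over all genes, and every score below is on that scale. Changes are log2 fold changes, KO minus WT, of score + 1, with a standard error (SE). They come from limma, with p-values adjusted by Benjamini-Hochberg over all genes tested and a threshold of 0.05. Genes with a mean score under 5 were not tested. Nothing in the labels says that the libraries of a group came from separate animals, so p-values measure the spread between libraries. Because the score's weighting by gene length was not stated, a higher score in 1 gene than in another is not read as more open chromatin. Genes are ordered by score once, as a description of the size of the score.

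The table held 34073 nuclei, from 4617 to 6990 in a library, with library medians of 7122.5 to 8874 ATAC fragments per nucleus. The authors had classed nuclei as Early, Int or Late. Early nuclei were few and uneven, with 102, 235 and 20 in WT and 310, 25 and 16 in KO, in the order of their replicate numbers, which is kept throughout. Fragment ends fell in peaks for 62.2% to 64.7% of ends in the median nucleus of a WT library and for 57.4% to 59.9% in KO. Libraries shared 753 cell barcodes. The score of Stag2 itself did not pass the test in all nuclei (64.2, 65.7 and 65.9 in WT and 61.0, 65.1 and 62.4 in KO, log2 change -0.05, limma adjusted p = 0.348). A score summed around the whole gene does not check a deletion inside it.

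The 13 erythroid markers of the sorted population were all present, with summed scores of 2360 to 2510 in WT and 2080 to 2190 in KO libraries. Of these erythroid markers, 12 were lower in KO, where 14.2% of all tested genes were lower and 29.1% higher. The marker counts in all nuclei that follow are to be read against the same shares. The share of tested genes higher in KO also went with the score. It was 41.3% at mean scores of 5.0 to 10.6 and 44.2% at 10.6 to 29.8. At 29.8 to 76.1 it was 22.6%, and above that 8.19%. The markers were not matched to other genes by score. In all nuclei, markers of other cells were higher in KO by their summed score: 92.4 to 101 in WT and 116 to 126 in KO for 12 neutrophil and monocyte genes, with 4 of 9 tested higher. The ranges were 34.8 to 41.6 and 48.1 to 52.5 for 5 endothelial genes (1 of 4 higher) and 53.8 to 63.5 and 67.7 to 76.2 for 6 stem and progenitor genes (3 of 6 higher). For 7 B cell genes they were 94.9 to 105 and 115 to 130 (3 of 5 higher), and for 8 T and NK cell genes 124 to 142 and 155 to 167 (1 of 4 higher). For 8 macrophage genes they were 42.7 to 47.0 and 50.1 to 52.9 (0 of 3 higher), and for 6 mast cell and basophil genes 31.2 to 36.6 and 37.0 to 38.6 (1 of 2 higher). In Int nuclei the sums of 3 lists overlapped between the genotypes: macrophage (50.6 to 60.4 in WT and 57.1 to 60.4 in KO), mast cell and basophil (33.2 to 42.5 and 41.8 to 43.6) and stem and progenitor genes (66.7 to 85.3 and 81.6 to 89.3), with 0 of 6, 0 of 2 and 0 of 6 tested genes higher. Of all tested genes in Int nuclei, 12.7% were higher and 7.1% lower. The sums of the other 4 lists in Int nuclei, and of all 7 in Late nuclei, lay higher in every KO library. Among single tested genes, every KO library lay above every WT library for 22.8% in Int and 36.8% in Late nuclei. None of these markers had a score of 0. The part that these shifts play in the results below was not tested.

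The sequences shown are the 250 bases before the RefSeq start of 3 members (for Gp9 this start lies 66 bases before that of the deposited table), which stand for the 3 patterns found below: Gp5, with the largest rise, Itga2b, with a rise in every setting tried, and Gp9, which fell. They are from RefSeq, build GRCm38.p6, read 5′ to 3′ on the gene's strand. Capitals mark the words AGATAA or AGATAG, and TGATAA or TGATAG, on either strand, which the GATA factors of both lineages can bind.
Gp5 (chr16:30310782-30311031, minus strand): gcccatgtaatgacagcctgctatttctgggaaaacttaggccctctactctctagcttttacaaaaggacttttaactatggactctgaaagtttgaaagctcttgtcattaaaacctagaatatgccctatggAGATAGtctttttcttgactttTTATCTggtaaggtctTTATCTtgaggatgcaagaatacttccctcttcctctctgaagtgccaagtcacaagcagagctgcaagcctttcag
Itga2b (chr11:102469884-102470133, minus strand): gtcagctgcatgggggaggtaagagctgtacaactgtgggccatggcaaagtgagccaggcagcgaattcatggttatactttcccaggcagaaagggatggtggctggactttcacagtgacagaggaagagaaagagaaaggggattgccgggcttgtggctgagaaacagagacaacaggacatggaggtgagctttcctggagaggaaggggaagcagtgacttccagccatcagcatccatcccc
Gp9 (chr6:87777820-87778069, plus strand): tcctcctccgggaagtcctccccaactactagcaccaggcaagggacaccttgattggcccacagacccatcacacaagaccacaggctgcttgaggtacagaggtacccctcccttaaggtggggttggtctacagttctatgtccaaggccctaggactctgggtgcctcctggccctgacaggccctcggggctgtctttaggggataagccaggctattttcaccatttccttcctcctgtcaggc
The Gp5 window held 3 of these words, while the Itga2b and Gp9 windows held none. Among all 32851 promoter windows of this length, 26.5% held at least 1. Of the 8 members with an entry (all but Itgb3 and Vwf), Gp1ba held 3, Gp6 held 1 and Pf4, Treml1 and Selp held none. The ETS words CCGGAA and AGGAAG, searched on both strands, occurred 2 times in the Itga2b window and 1 time in the Gp5 and Gp9 windows, and 38.2% of all windows held at least 1. A match is a run of letters and not a measured binding site.

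Accessibility around the platelet genes did not move as 1 group. In all nuclei, 3 of the 8 tested members were higher in KO (Gp5, Itga2b and Itgb3), 2 were lower (Gp9 and Vwf) and 3 did not pass (Gp1ba, Treml1 and Selp). Gp6 and Pf4 had mean scores under 5 and were not tested. Changes were common among all genes: of 17682 tested, 43.3% passed, 29.1% as higher and 14.2% as lower. That split moved with the scaling, to 16.0% and 13.6% under cyclic loess, 14.4% and 16.3% under quantile normalization and 17.1% and 31.2% under median centring, which took the median log2 change of all tested genes from 0.096 to -0.050. Without the Early nuclei, a setting chosen after the data were seen, 4 members were higher (Treml1 also, limma adjusted p = 0.0497, WT mean 5.05) and 2 lower, while 51.6% of 17578 tested genes passed, 35.0% as higher and 16.6% as lower. The median log2 change of the 10 members with no filter on low scores was 0.31, and that of all genes with no filter was 0.15.

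**Figure D1:**
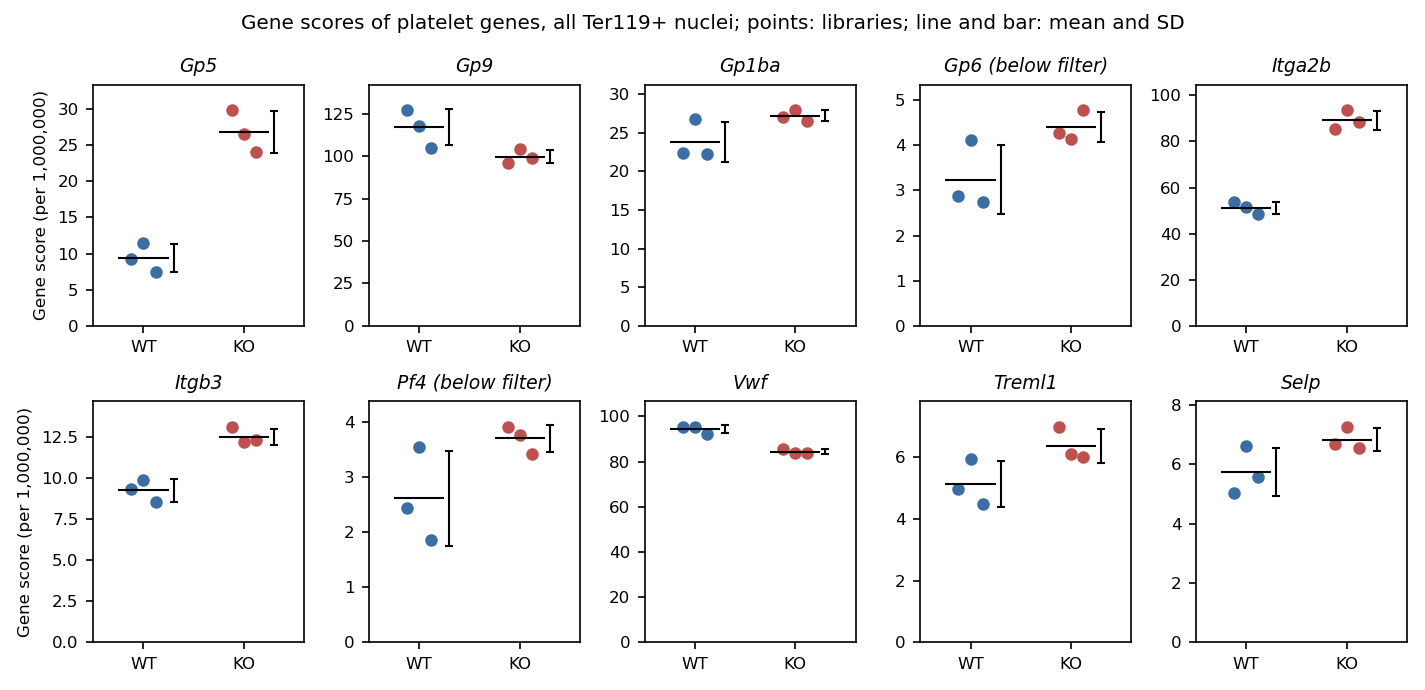
Gene score of each of the 10 platelet genes in all Ter119+ nuclei (vertical axis from 0, per 1000000) by genotype, with 1 point per library, a line at the mean and a bar for the SD of 3 libraries. The KO points of Gp5 (24.1 to 29.8) and Itga2b (85.4 to 93.5) lie far above the WT points, and those of Gp9 and Vwf lie below them.

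Within the receptor for von Willebrand factor, Gp5 was higher in KO and Gp9 lower, and Gp1ba did not pass in all nuclei. Gp5 (chr16:30307685-30310781, mm10) encodes glycoprotein V, the subunit that thrombin cleaves. Its score was 9.26, 11.4 and 7.51 in WT and 29.8, 26.5 and 24.1 in KO. The groups lay apart, with means of 9.38 ± 1.94 and 26.8 ± 2.87 (SD, n = 3 each), a ratio of 2.86. The log2 change was 1.43 (SE 0.127, limma adjusted p = 1.81e-07), which had rank 34 from the highest of 17682 genes. Without the Early nuclei it was 1.48.

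Gp9 (chr6:87778136-87779762) encodes glycoprotein IX, a small subunit needed to bring the complex to the surface. Its score was 127, 118 and 105 in WT and 96.0, 104 and 99.2 in KO, so every KO library lay below every WT library, though the closest of them differed little. The log2 change was -0.22 (SE 0.056, limma adjusted p = 0.00497). The call was lost under quantile normalization (-0.16, adjusted p = 0.0601), cyclic loess (-0.15, 0.0730) and a fit with no variance trend (-0.22, 0.0551). Under median centring the Gp9 change was larger (-0.37, limma adjusted p = 0.000314). Gp1ba (chr11:70639122-70642058) encodes the subunit that binds von Willebrand factor. It scored 22.4, 26.8 and 22.2 in WT and 27.0, 27.9 and 26.5 in KO, where KO replicate 3 lay below WT replicate 2. Its log2 change of 0.19 (SE 0.086) did not pass in all nuclei (limma adjusted p = 0.0814), and without WT replicate 2 it was 0.27 and passed (0.0151). It also passed without high doublet enrichment (0.22, limma adjusted p = 0.0432). The Gp1ba change was 0.0033 under quantile normalization, 0.048 under cyclic loess and 0.043 under median centring. Among nuclei with 5000 to 12000 fragments it was 0.056, and none of these passed.

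Both chains of the fibrinogen receptor were higher in KO. Itga2b (chr11:102453297-102469883) encodes the alpha chain. Its score was 53.6, 51.7 and 48.4 in WT and 85.4, 93.5 and 88.5 in KO, with no overlap. Means were 51.2 ± 2.65 and 89.2 ± 4.06 (SD, n = 3 each) and the log2 change was 0.79 (SE 0.051, limma adjusted p = 3.98e-09), at rank 289. Itgb3 (chr11:104608000-104670473), the beta chain, is also used in other integrins. It scored 9.32, 9.89 and 8.51 in WT and 13.1, 12.2 and 12.3 in KO, again apart. The log2 change of Itgb3 was 0.40 (SE 0.108, limma adjusted p = 0.00741). The Itgb3 call was lost under quantile normalization (0.13, adjusted p = 0.174) and cyclic loess (0.15, adjusted p = 0.121), whereas the Itga2b call held under both.

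Of the granule genes, Vwf was lower and the others did not pass or were not tested. Vwf (chr6:125532587-125686679) encodes the adhesive ligand of the Gp1ba product and is known in endothelium as well as in megakaryocytes. Its score was 95.4, 95.2 and 92.2 in WT and 85.6, 83.7 and 84.0 in KO, a small difference with a narrow spread (94.3 ± 1.80 and 84.4 ± 0.994, SD, n = 3 each). The log2 change of Vwf was -0.16 (SE 0.042, limma adjusted p = 0.00653), and under cyclic loess it was -0.097 and did not pass (0.0688). Under median centring it was larger, at -0.3 (limma adjusted p = 0.000808), and -0.33 in Int nuclei (0.00846). Selp (chr1:164115264-164150026), the adhesion receptor P-selectin, scored 5.02, 6.60 and 5.57 in WT and 6.68, 7.26 and 6.56 in KO. The lowest KO library lay just below the highest WT library, and the log2 change of 0.23 (SE 0.115) did not pass (limma adjusted p = 0.116). Without WT replicate 2 the Selp change was 0.32 and passed (0.0222).

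Treml1 (chr17:48359916-48367176) scored 4.97, 5.94 and 4.48 in WT and 6.99, 6.10 and 6.00 in KO. The groups lay apart, yet the log2 change of 0.27 (SE 0.117) did not pass (limma adjusted p = 0.0693). It passed without WT replicate 2 (0.36, limma adjusted p = 0.0114) and among nuclei with 5000 to 12000 fragments (0.34, 0.0371). In both of these settings the WT mean of Treml1 (4.72 and 4.94) was under the filter of 5 and it was tested through the KO mean (6.36 and 6.45). For both Treml1 and Selp the sign depended on the scaling: under quantile normalization the changes were -0.0063 and -0.042, and under cyclic loess -0.013 and -0.053. Gp6 (chr7:4368713-4397744) scored 2.87, 4.12 and 2.74 in WT and 4.28, 4.14 and 4.77 in KO, with the groups apart by a narrow gap. Pf4 (chr5:90772435-90773383), a chemokine gene, scored 2.44, 3.55 and 1.86 in WT and 3.92, 3.78 and 3.43 in KO, with overlap. In a fit with no filter on low scores, Gp6 had a log2 change of 0.36 (limma adjusted p = 0.0481) and Pf4 of 0.41 (0.0433), both close to the threshold. In the same fit of Int nuclei neither passed (limma adjusted p = 0.292 for Gp6 and 0.676 for Pf4). In Late nuclei Pf4 passed (0.0317) and Gp6 did not (0.0661). Among nuclei with 5000 to 12000 fragments the Pf4 means were nearly equal, at 2.31 in WT and 2.38 in KO. Among all tested genes, 55.4% had libraries that did not overlap between the genotypes, 36.1% with KO above WT, as for Gp5, Itga2b, Itgb3 and Treml1, and 19.3% with KO below WT, as for Gp9 and Vwf.

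The direction of a change went with the level of the score across all genes. Tested genes were split by their mean score into 4 sets of equal size. In the lowest set, which held Treml1 and Selp, the median log2 change was 0.26 and 41.3% of genes were higher in KO. In the next set (scores of 10.6 to 29.8), which held Gp5, Gp1ba and Itgb3, the median was 0.24 and 44.2% were higher. The set of Itga2b had a median of -0.02, with 22.6% higher and 21.8% lower. In the highest set, which held Gp9 and Vwf, the median was -0.07 and 31.4% were lower. The changes of Gp5 (1.43 against a median of 0.24) and Itga2b (0.79 against -0.02) lay far from the median of their own set. Those of Itgb3 (0.40 against 0.24) and Gp9 (-0.22 against -0.07) lay nearer to it.

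Gp5 was then set against each other member within a library, as the difference of the log2 values of score + 1. The log2 ratio of Gp5 to Gp9 was -3.64, -3.26 and -3.64 in WT and -1.66, -1.93 and -2.0 in KO, a difference of 1.65. The ratio to Gp1ba was -1.19, -1.16 and -1.45 in WT and 0.13, -0.07 and -0.13 in KO, a difference of 1.24. Relative to Gp9 and Gp1ba, the Gp5 score was thus higher in every KO library. Gp1bb, the other partner in the receptor, was not set against it. The difference was 1.59 against Vwf, 1.21 against Selp, 1.16 against Treml1, 1.07 against Gp6 and 1.03 against both Itgb3 and Pf4. It was smallest against Itga2b, where the ratio was -2.41, -2.09 and -2.54 in WT and -1.49, -1.78 and -1.84 in KO (difference 0.64, and 0.41 with a pseudocount of 5). In all 9 ratios the KO libraries lay above the WT libraries (exact permutation test, two-sided, p = 0.1 for each and 0.1 after Benjamini-Hochberg adjustment over the 9), and 3 libraries against 3 cannot give a smaller p. This is not particular to platelet genes: against the other tested genes 1 at a time, 99.4% of ratios of Gp5 lay apart in the same direction.

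The changes were then examined within the authors' classes, Int and Late, in which every library had at least 50 nuclei. In Int nuclei, 2 of 8 tested members were higher (Gp5 and Itga2b) and 2 were lower (Gp9 and Vwf), where 19.8% of all 19465 tested genes passed, 12.7% as higher and 7.1% as lower (6.95% and 21.6% under median centring, 10.7% and 10.4% under quantile normalization). Gp5 scored 11.3, 12.7 and 7.61 in WT and 27.3, 29.9 and 24.0 in KO Int nuclei (log2 change 1.30, SE 0.147, limma adjusted p = 2.06e-07). Itga2b scored 46.6, 48.6 and 43.0 in WT and 79.8, 85.5 and 79.9 in KO Int nuclei (0.82, SE 0.058, limma adjusted p = 4.71e-11). Both genes had KO libraries well above every WT library. The libraries of 4 tested members (Gp5, Itga2b, Itgb3 and Vwf) did not overlap in Int nuclei, as for 37.3% of all tested genes. Gp9 (-0.18, limma adjusted p = 0.0291) and Vwf (-0.15, 0.0225) were close to the threshold in Int nuclei, and each lost its call in 10 of 18 other settings. Itgb3 (0.33, limma adjusted p = 0.115), Gp1ba (0.08, 0.626), Treml1 (0.16, 0.486) and Selp (0.07, 0.784) did not pass. KO Int nuclei were deeper, with library medians of 13911 to 14998 fragments against 10121 to 12877 in WT. Among Int nuclei with 5000 to 12000 fragments the changes of Gp5 and Itga2b were 1.18 and 0.76, and Gp9 and Vwf did not pass (adjusted p = 0.0686 and 0.476).

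In Late nuclei, 5 of 8 tested members were higher (Gp5, Itga2b, Itgb3, Gp1ba and Selp) and 2 were lower (Gp9 and Vwf). Here 51.4% of all 15886 tested genes passed, 32.9% as higher and 18.5% as lower (19.6% and 17.7% under cyclic loess, 17.6% and 20.2% under quantile normalization, 25.9% and 28.2% under median centring). The libraries of 6 tested members did not overlap, as for 59.5% of all tested genes, and 5 of them had KO above WT, as for 36.8%. Gp5 scored 7.21, 7.05 and 7.27 in WT and 25.6, 23.5 and 23.8 in KO Late nuclei, means of 7.18 ± 0.115 and 24.3 ± 1.11 (SD, n = 3 each). The WT libraries were nearly equal and the KO level was 3.38 times theirs (log2 change 1.63, SE 0.084, limma adjusted p = 1.06e-08, rank 35). Itga2b scored 56.9, 53.9 and 55.4 in WT and 92.5, 100.1 and 96.8 in KO Late nuclei (0.79, SE 0.049, limma adjusted p = 5.24e-08). Gp1ba scored 18.4, 18.4 and 17.9 in WT and 21.2, 23.0 and 22.5 in KO, apart in this class (0.27, SE 0.074, limma adjusted p = 0.00728). Among Late nuclei with 5000 to 12000 fragments the change of Gp1ba was 0.087 and did not pass (0.385).

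Selp scored 4.58, 4.65 and 4.13 in WT and 5.95, 6.93 and 5.88 in KO Late nuclei, also apart (0.41, SE 0.112, limma adjusted p = 0.0079). Its WT mean of 4.45 was under the filter of 5 and it was tested through the KO mean of 6.25, so its place in the count of 5 is not support for the group. With no filter its limma adjusted p was 0.0135. Itgb3 was higher by 0.41 (SE 0.095, limma adjusted p = 0.00277). Under quantile normalization the changes of Gp1ba (0.074), Itgb3 (0.085) and Selp (0.029) no longer passed, nor did they under cyclic loess (0.12, 0.10 and 0.0089). Gp9 scored 119, 103 and 84.2 in WT and 79.0, 86.9 and 83.3 in KO Late nuclei, so WT replicate 3 lay among the KO libraries (-0.28, SE 0.090, limma adjusted p = 0.0179). The Gp9 call was lost when WT replicate 1 (-0.17, adjusted p = 0.0838), WT replicate 2 (-0.27, 0.0596) or KO replicate 1 (-0.25, 0.0660) was left out. Without WT replicate 3 the change was -0.41 (limma adjusted p = 0.000179). Vwf fell by 0.16 on the log2 scale (SE 0.046, limma adjusted p = 0.00912), and Treml1 (0.31, 0.0519) did not pass. Treml1 was also tested through KO, with a WT mean of 4.85 and a KO mean of 6.21, and its libraries overlapped. It passed among Late nuclei with 5000 to 12000 fragments (0.43, limma adjusted p = 0.0105), without WT replicate 2 (0.42, 0.0219), with no variance trend (0.31, 0.0447) and with the replicate block (0.31, 0.0392), and with no filter it did not (0.0666).

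**Figure D2:**
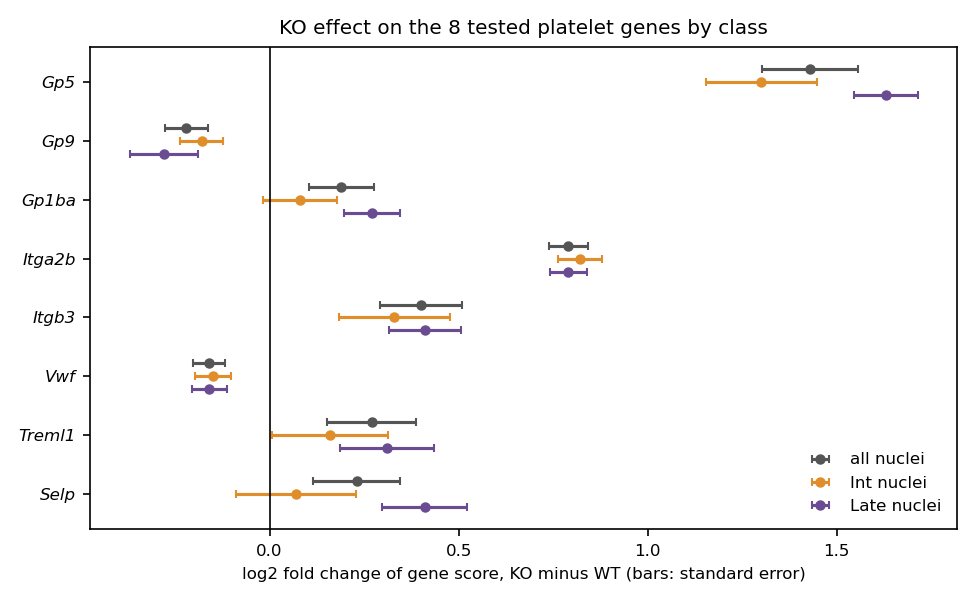
Log2 fold change of the gene score, KO minus WT (horizontal axis), for the 8 tested platelet genes in all nuclei, Int nuclei and Late nuclei, with bars for the standard error. Gp5 (1.30 to 1.63) and Itga2b (0.79 to 0.82) lie far to the right of 0, Gp9 and Vwf to the left, and the other genes between them.

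Whether the KO change differed between Late and Int nuclei was tested on the difference within each library. None of the 8 members passed by limma at an adjusted p under 0.05, while 35 of 15873 genes did (0.221%). Without adjustment Selp alone was under 0.05 (0.34 larger in Late nuclei, SE 0.132, limma unadjusted p = 0.0358 and adjusted p = 0.248). The difference was 0.32 for Gp5 (SE 0.183, limma adjusted p = 0.416), and it moved from 0.17 without WT replicate 2 to 0.53 without WT replicate 3 (adjusted p = 0.0502). It was 0.20 for Gp1ba (SE 0.122, 0.461; 0.090 without WT replicate 2 and 0.30 without WT replicate 3) and -0.03 for Itga2b (SE 0.062, 0.867). A member called in Late and not in Int nuclei, such as Itgb3 or Gp1ba, is therefore not shown to differ between the classes.

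The levels by class are given as a description, since the authors drew classes and clusters from these nuclei. Gp5 was highest in Early nuclei, at 55.8 and 52.3 in WT replicates 1 and 2 and 78.4 in KO replicate 1, the libraries with at least 50 such nuclei. Int followed, and Late was lowest in all 6 libraries, at 0.553 to 0.990 of the Int level. In 2 libraries, WT replicate 3 (0.956) and KO replicate 3 (0.990), Int and Late hardly differed. Itga2b had the opposite order between those classes, with Late at 1.11 to 1.29 times the Int level in all 6 libraries, and its Early scores were 63.8 and 56.9 in WT and 78.8 in KO. The Late level was also below the Int level in all 6 libraries for Gp9 (0.692 to 0.831), Gp1ba (0.523 to 0.737), Gp6, Itgb3 and Selp. Pf4 had the steepest drop, to 0.323 to 0.607 of its Int level, and stood at 14.7 and 15.1 in WT and 24.0 in KO Early nuclei. For Vwf the ratio was 0.963 to 1.02, with no steady direction. Early nuclei were the deepest, with library medians of 38126 to 53468 fragments, against 5693 to 6812 in Late nuclei.

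The authors' clusters nearly separated by genotype, so most WT and KO clusters can only be set side by side. Gp5 scored 18.5, 22.7 and 14.6 in cluster C9, which held WT nuclei, and 33.2, 32.9 and 29.2 in C8, which held KO nuclei (the Int clusters with the most fragments per nucleus). It scored 9.04, 9.38 and 7.21 in C11 (WT) and 24.3, 23.4 and 22.1 in C10 (KO). Among Late nuclei it scored 7.03 to 7.30 in C3 (WT) and 23.4 to 25.5 in C2 (KO), and the 58 to 68 WT nuclei per library that fell in C2 gave 2.12 to 15.3. Itga2b overlapped within C2, at 59.3 to 98.9 in those few WT nuclei and 92.4 to 101 in KO. In both genotypes the first of these Int clusters had a higher Gp5 score than the next, and outside C7 the lowest KO cluster mean (23.3, in C10) stood above the highest WT cluster mean (18.6, in C9). C7, mostly Early nuclei, had the highest Gp5 scores (52.8 and 51.0 in WT, 77.2 in KO). C5, a cluster of Int nuclei, held nuclei of both genotypes in number, and Gp5 scored 15.8, 5.03 and 1.31 in its WT nuclei and 22.1, 35.6 and 18.9 in its KO nuclei. Within C5 the log2 change of Gp5 was 2.07 and did not pass (limma adjusted p = 0.127), with 143 to 261 WT nuclei per library, while Itga2b rose by 0.82 (0.0313).

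**Figure D3:**
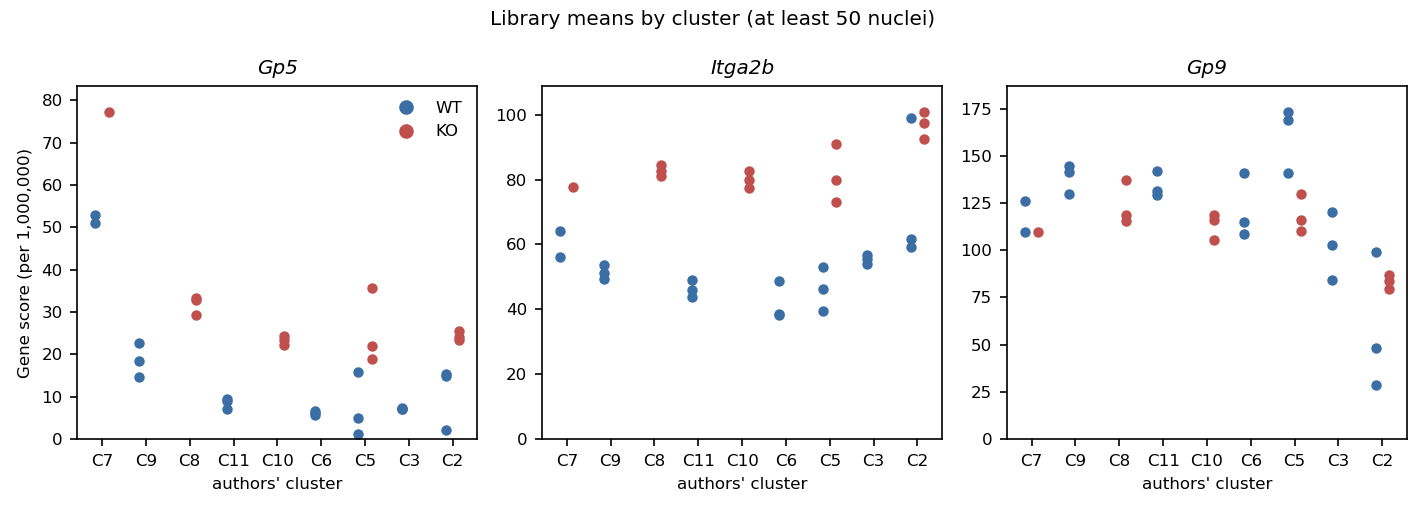
Library means of the gene score (vertical axis from 0, per 1000000) of Gp5, Itga2b and Gp9 in each of the authors' clusters with at least 50 nuclei, 1 point per library, coloured by genotype. Gp5 peaks in C7 (77.2 in KO replicate 1), and the KO points of Gp5 and Itga2b lie above the WT points of C5, where both genotypes are present. In C2, with few WT nuclei, the Itga2b points overlap (59.3 to 98.9 in WT and 92.4 to 101 in KO).

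Score was spread over many nuclei for some members and rested on few for others. Gp5 had a score above 0 in 6.60% ± 2.02 of WT nuclei and 15.8% ± 3.45 of KO nuclei (SD over 3 libraries each). For Itga2b it was 33.8% ± 2.67 and 52.7% ± 1.75, for Gp9 45.5% ± 3.91 and 43.1% ± 1.67, and for Pf4 1.67% ± 0.766 and 2.38% ± 0.938. The 1% of nuclei with the highest Gp5 score held 42.7% ± 6.89 of all Gp5 score in WT and 26.4% ± 3.93 in KO. More KO nuclei thus had any Gp5 score. With more nuclei above 0, the top 1% is a smaller part of them. The lower share of the total in KO is therefore not a separate result. Nuclei with at least 8 of the 10 genes above 0 numbered 24, 39 and 2 in WT and 102, 17 and 12 in KO, and the median nucleus had 2 in every library. Only KO replicate 1 thus exceeded every WT library. These counts were not matched for depth. Early nuclei, the deepest, numbered 102, 235 and 20 in WT and 310, 25 and 16 in KO, and their part in the counts was not tested.

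Since such shares grow with depth, they were also taken within bins of fragments per nucleus. In Int nuclei with 5000 to 8000 fragments, Gp5 was above 0 in 3.70% ± 0.408 of WT and 8.63% ± 0.370 of KO nuclei, and with 12000 to 20000 fragments in 9.32% ± 1.51 and 21.9% ± 1.48 (SD, n = 3 each). In Late nuclei the same bins gave 3.61% ± 0.241 and 8.88% ± 0.946, then 6.80% ± 1.67 and 24.7% ± 1.57. Every KO library lay above every WT library in each of the 6 Int and 5 Late bins, for Gp5 and for Itga2b alike. The bins were not read for other genes, so the share of all genes that lay apart in them is not known. By score and without bins, KO lay above WT in this way for 22.8% of tested genes in Int and 36.8% in Late nuclei. In the Late bin of 12000 to 20000 fragments the smallest libraries held 62 WT and 73 KO nuclei. The deepest Int bin ran from 20000 to 100000 fragments, so depth was only loosely matched in it. In nuclei of all classes with 5000 to 12000 fragments the share for Gp9 was 43.7% ± 3.15 in WT and 36.4% ± 1.01 in KO. This difference was wider at matched depth than over all nuclei. The share for Vwf was also lower there in every KO library than in every WT library. Those for Gp6, Itgb3 and Selp, like Gp5 and Itga2b, were higher, and those for Gp1ba, Pf4 and Treml1 overlapped.

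**Figure D4:**
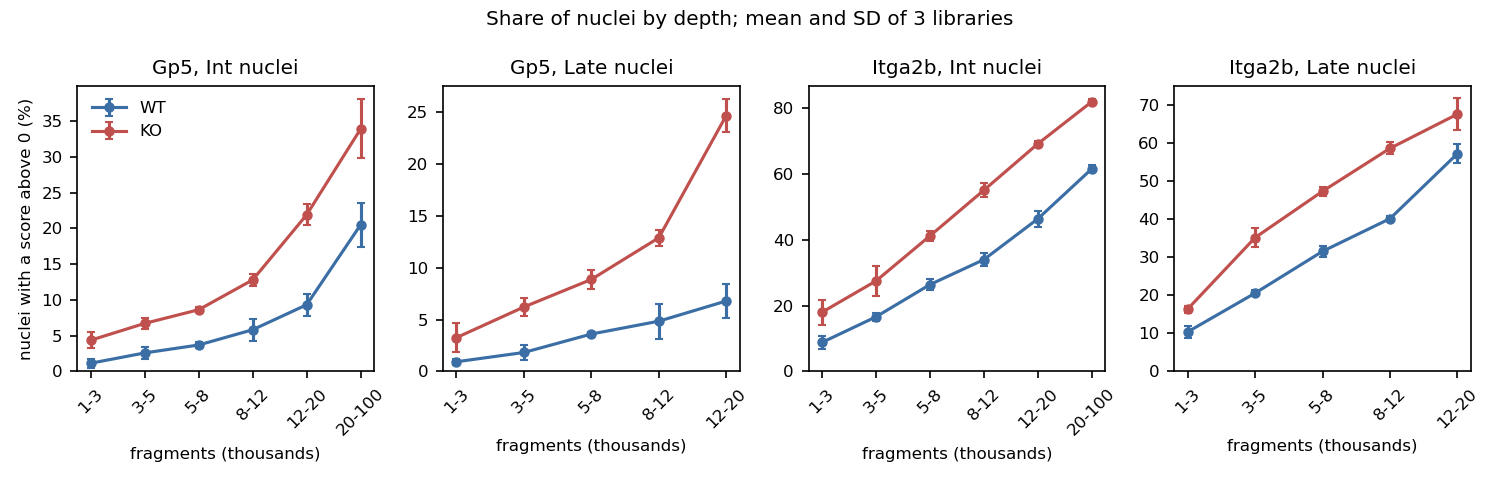
Share of nuclei with a gene score above 0 (vertical axis, percent, from 0) for Gp5 and Itga2b in Int and Late nuclei, by bins of ATAC fragments per nucleus (axis in units of 1000); points are the mean and bars the SD of 3 libraries. The share rises with depth in both genotypes, and the KO line is above the WT line in every bin.

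Fragments between neighbouring genes can count towards the score of each, so genes that start within 100 kb of a member were examined in the fit of all nuclei, in which 29.1% of all tested genes were higher and 14.2% lower. Around Gp5, Cpn2 at 43.2 kb was higher in KO (0.42, limma adjusted p = 0.0125), by less than Gp5, and Atp13a3 at 77.7 kb did not pass (-0.07, 0.346). Distances are between starts, and the body of Atp13a3 (chr16:30312423-30388530) comes closer to Gp5 than its start does. Lrrc15, at 27.5 kb, was under the filter and not tested (WT mean 3.96, KO mean 5.49). Around Itga2b, Fam171a2 at 22.2 kb was higher (0.38, 0.00398), Grn at 39.6 kb did not pass (0.02, 0.766) and 3 of the 7 tested neighbours were lower. Of these lower genes, Mir6930 lies within Slc25a39, so they are not separate counts. The rises of Gp5 and Itga2b were thus larger than those of any tested neighbour. Gp9 was different: Rab43 at 34.0 kb fell by 0.31 on the log2 scale (limma adjusted p = 7.2e-05), more than Gp9 itself, and 3 of its 5 tested neighbours were lower and none higher. The only neighbour of Vwf, Cd9 at 37.8 kb, moved the other way (0.79, 9.61e-08). Around Gp1ba, 5 of 13 tested neighbours were higher and none lower, and its nearest, Slc25a11, did not pass (-0.03, 0.586). Of the higher genes, Mir6925 lies within Kif1c, so they too are not separate counts. Around Itgb3 none of 3 passed (nearest Gm11665, 0.26, limma adjusted p = 0.0970), nor did the single tested neighbour of Pf4 (Cxcl5, 0.10, 0.459). Around Treml1 1 of 9 was lower (nearest Trem2, 0.11, 0.418), around Gp6 2 of 3 were higher (nearest Rdh13, 0.36), and around Selp 1 of 2 was higher (F5, 0.32).

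**Figure D5:**
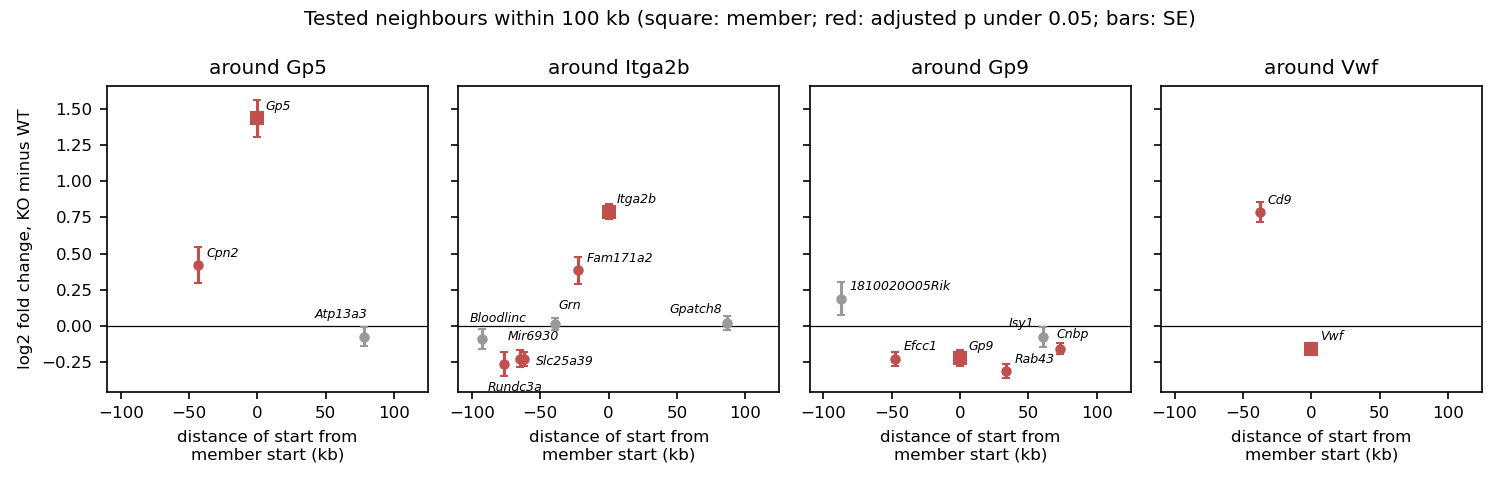
Log2 fold change, KO minus WT, in all nuclei (vertical axis) of Gp5, Itga2b, Gp9 and Vwf (squares) and of tested genes starting within 100 kb of each (circles), by distance between starts in kb along the chromosome; bars are standard errors and red marks an adjusted p under 0.05. Gp5 (1.43) and Itga2b (0.79) stand above all their neighbours, Gp9 lies among lower neighbours, and Cd9 lies above Vwf.

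The genes with a pattern most like that of Gp5 were sought by Pearson's r of log2 scores over 12 values, the 6 libraries in Int and Late nuclei, leaving out genes within 1 Mb. They were Lfng (r = 0.996), Maml3 (0.991), Cry1, Asb13 and Lncpint (0.989 each), none of them a member. Among the members, Itga2b (0.859) and Itgb3 (0.824) were most like Gp5, then Treml1 (0.688), Selp (0.63) and Gp1ba (0.507). Gp9 had an r of -0.217 and Vwf of -0.886. The 12 values share libraries and the split by genotype, so these are descriptions.

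A list of 40 other megakaryocyte and platelet genes was read from the same fits. Of its 32 tested genes in all nuclei, 16 were higher and 2 lower, and the median log2 change was 0.23 against 0.10 for all tested genes, of which 29.1% were higher and 14.2% lower. The list was not matched to other genes by score. In the 4 sets split by score above, the medians were 0.26, 0.24, -0.02 and -0.07 from the lowest set up. The shares higher in KO were 41.3%, 44.2%, 22.6% and 8.19%. Cd9, a tetraspanin of platelets, scored 28.0, 30.4 and 26.9 in WT and 50.3, 51.9 and 47.1 in KO (0.79, SE 0.066, limma adjusted p = 9.61e-08). The mitochondrial cyclophilin gene Ppif (0.65), the laminin receptor chain Itga6 (0.60) and the kinase substrate Plek (0.54) followed. The largest fall was that of P2ry1, an ADP receptor of platelets, with 66.1, 71.0 and 68.1 in WT and 37.5, 32.9 and 31.3 in KO (-1.0, SE 0.064, limma adjusted p = 3.48e-09). The granule gene Mmrn1 fell by 0.43 on the log2 scale, and Tbxas1 (0.15) and Nbeal2 (0.17) had the smallest rises among the genes that passed. In Int nuclei 4 of 34 were higher and 2 lower, where 12.7% of all tested genes were higher and 7.1% lower, so these shares lay near the background. In Late nuclei 14 of 27 were higher and 3 lower, where 32.9% and 18.5% of all tested genes were.

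A second list held 26 megakaryocyte regulators, of which 25 were in the table and 24 were tested; 1, Mafg, was listed at 0. In all nuclei 9 were higher and 8 lower, against 29.1% higher and 14.2% lower of all tested genes, and the median log2 change was 0.04 against 0.10. This list was not matched to other genes by score either. In the lowest of the 4 sets split by score, 41.3% of genes were higher and 0.565% lower. In the highest set 8.19% were higher and 31.4% lower. Among the highest were the transcription factors Gata2 (16.5, 21.5 and 15.7 in WT; 48.3, 38.8 and 38.9 in KO; log2 change 1.19), Fli1 (0.98) and Ets1 (0.86). Fli1 and Ets1 are ETS factors, and Fli1 is known for its place in megakaryocyte maturation. The lowest were Myb (-0.36), Lmo2 (-0.26), Tal1 (-0.24) and Gfi1b (-0.19), the latter 3 known in both erythroid and megakaryocyte cells. In Int nuclei 7 of 24 were higher and 5 lower (12.7% and 7.1% of all tested genes), and in Late nuclei 9 of 23 were higher and 11 lower (32.9% and 18.5%).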

How the data were processed

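Nuclei of sorted Ter119+ erythroblasts were profiled as 10x Genomics multiome libraries, and the ATAC libraries of 3 WT and 3 KO samples were used. The submitters' processing notes name Cell Ranger and mm10. The authors deposited a gene score signal for each gene and nucleus, scaled so that each nucleus summed to 9999.855 to 10000.12, with 25.2% of values above 0; its weighting is not given in the sources used here. The table has no row names, so rows were matched to the feature table by their order. Per the file headers, the deposited table of nuclei gives counts of ATAC fragments, a doublet enrichment score, fragment ends in peaks, and the genotype, cluster and class. It lists each nucleus 2 times, and 1 copy was used. No nucleus was removed, and doublets were handled by an alternative without the 10% of nuclei with the highest doublet enrichment.

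Library means rescaled to 1000000, with a mean of at least 5, were compared as log2(score + 1) with limma 3.58.1 in R 4.3.3 (eBayes with a variance trend, two-sided), a scale that shrinks the changes of low genes. Ratios of Gp5 to other members used an exact permutation test. Python 3.11.15, numpy 2.4.6, pandas 2.3.3, scipy 1.17.1 and matplotlib 3.10.9 were used, and the fit was tested on simulated data. The members and gene lists were chosen with earlier results of these data known. Text names all 10 members, their nearest tested neighbours within 100 kb (others chosen after their values were seen), the 4 highest and 4 lowest changes past the threshold in each further list, and the 5 genes most like Gp5; some of these list genes and 1 marker list are not reported here. Groups with under 50 nuclei in a library were left out there. The nuclei of the deposited table summed to 46782673 to 66286151 fragments in a library. Alternatives were the pseudocount, the filter, the scaling, the variance trend, depth, doublets, the replicate block and each library left out.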

Additional observations from a re-analysis of the deposited data

How the results depend on the processing

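Gp5 and Itga2b kept direction and call in every setting of the 3 comparisons of KO with WT in which they were tested, except Gp5 in cluster C5 alone. Gp5 was not tested with the filter at a mean score of 20. The log2 change of Gp5 ranged from 1.15 to 1.57 in all nuclei, 1.06 to 2.07 in Int and 1.27 to 1.74 in Late nuclei, and that of Itga2b from 0.64 to 0.85. The ratios of Gp5 to the 9 other members kept their sign in all 10 settings each.

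After each count below stands the share of all tested genes called that way in the same setting. In all nuclei, the members called higher numbered 1 with a filter at a mean score of 20 (18.3%), which leaves fewer genes, 5 with no filter (25.9%) and 3 to 6 with 1 library left out (6 without WT replicate 2, 35.5%, with Treml1 tested only through its KO mean). Those called lower numbered 1 under quantile normalization (16.3%) and with no variance trend (8.59%), and 0 under cyclic loess (13.6%). Treml1 reversed to -0.0063 and -0.013, and Selp to -0.042 and -0.053, under quantile normalization and cyclic loess. In Int nuclei, those called higher numbered 1 with the filter at 20 (15.5%) and 1 in cluster C5 alone (0.416%). Those called lower numbered 1 with the filter at 20 (13.3%), with no filter (4.96%) and without high doublet enrichment (6.26%), and 0 under quantile normalization (10.4%), cyclic loess (8.51%), no variance trend (1.86%), 5000 to 12000 fragments (4.86%) and C5 alone (0.463%); with 1 library left out they numbered 0 to 2 (4.66% to 7.52%). Gp1ba reversed to -0.10 under median centring, -0.059 under quantile normalization, -0.024 under cyclic loess and -0.32 in C5. Selp reversed to -0.10, -0.064 and -0.069 under these 3 scalings, and Treml1 to -0.012 under median centring. With 1 library left out, Gp1ba ranged from -0.039 to 0.19 and Selp from -0.048 to 0.22. Itgb3 ranged from 0.19 to 0.4 and Treml1 from 0.05 to 0.25. In Late nuclei, those called higher numbered 2 with the filter at 20 (18.9%), under quantile normalization (17.6%) and under cyclic loess (19.6%). Those called lower numbered 0 under quantile normalization (20.2%) and cyclic loess (17.7%) and 1 with no variance trend (14.2%); with 1 library left out they numbered 1 to 2 (14% to 18.3%). Treml1 reversed to -0.075 and -0.087 under quantile normalization and cyclic loess. The difference between Late and Int effects ranged, with 1 library left out, from -0.037 to 0.0032 for Vwf, -0.030 to 0.25 for Itgb3, -0.084 to 0.021 for Itga2b, 0.17 to 0.53 for Gp5, 0.090 to 0.30 for Gp1ba, -0.17 to -0.046 for Gp9, 0.015 to 0.31 for Treml1 and 0.22 to 0.48 for Selp. The cause of these shifts was not tested.

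Genes called in all numbered 7661 in all nuclei and 4244 with the filter at 20; 3858 in Int nuclei, and 1921 with no variance trend, 2357 at 5000 to 12000 fragments, 2547 without KO replicate 1 and 171 in C5 alone; and 8161 in Late nuclei and 4560 with the filter at 20. For Late against Int they numbered 35, 120 with a pseudocount of 5, 218 with the filter at 20, 12 with the replicate block and 0 to 819 with 1 library left out (819 without WT replicate 3, 0 without KO replicate 2).

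In all nuclei the correlations of same-numbered libraries were -0.117, -0.273 and 0.206, and in Int nuclei 0.129, -0.084 and 0.192. In Late nuclei they were 0.087, 0.045 and 0.051, above those of differently numbered libraries (-0.071 to 0.02). With 3 libraries per genotype these values cannot settle whether replicate numbers pair the libraries. With the replicate block, members called numbered 3 higher and 2 lower in all nuclei (27.8% and 14.4% of all tested genes), 2 and 2 in Int (15% and 8.29%), and 6 and 2 in Late nuclei (32.6% and 17.6%), where Treml1 passed. Treml1 and Selp entered the Late test only through their KO means, so their calls do not support the count. Few WT nuclei had a score above 0 for Pf4 (1.67%), Treml1 (5.20%), Gp6 (5.51%), Gp5 (6.60%) and Selp (7.44%).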
